A study of Mus musculus with 12 samples.

Results

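Cetylpyridinium chloride (CPC) is a quaternary ammonium disinfectant, a pyridinium ring with a long alkyl chain, used in mouthwashes. Its effect on the transcripts of mouse oligodendrocyte progenitor cells (OPCs) was read from 6 of the 12 samples of a poly(A) RNA sequencing series: the 3 libraries labelled as treated with CPC and the 3 labelled as given the vehicle, dimethyl sulfoxide (DMSO). The OPCs were made from mouse pluripotent stem cells, left to attach for 1 h in differentiation-permissive medium, and then exposed for 4 h to CPC at its IC75, a concentration that inhibits by 75%, or to DMSO. The same experiment held 3 libraries treated with C12-C14-alkyl(ethylbenzyl)dimethylammonium chloride (AEBDAC) and 3 treated with methyltrioctylammonium chloride (MTOAC), each at its own IC75. The sources used here give neither the readout behind the IC75 values nor the concentrations. No genotype, strain or sex is given, the cells had been expanded in medium with noggin, NT3, cyclic AMP and IGF-1, and nothing in the labels ties the libraries of a group to separate cultures. The p-values below therefore measure the spread between these libraries, which may be technical.

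OPCs are the dividing precursors of the cells that make myelin in the central nervous system. They carry platelet-derived growth factor receptors that act through the ERK kinase cascade, and they talk to their neighbours through Notch ligands and receptors, which hold back maturation. Immediate early genes such as Nr4a1 and Egr1 are transcribed within minutes of a stimulus, before any new protein is made, and feedback genes such as the Sprouty family then damp the same cascade. Known targets of the integrated stress response, the ATF4 program that follows phosphorylation of eIF2, are given here only as a yardstick. With the replicate number as a block 8 of its 51 tested members rose and none fell, against 0.283% and 1.25% of all tested genes. They were led by Chac1, a glutathione-degrading enzyme, with 33.0, 45.9 and 40.0 TPM with CPC, against 3.05, 6.50 and 7.42 TPM with vehicle.

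The values were TPM, a transcript's share of its library scaled by transcript length, which make levels of different genes comparable and carry no trace of depth. The deposited values of a library added up to between 772637 and 797758 TPM, and the depth behind single values is unknown. The OPC markers Olig1 and Olig2 were abundant in all 6 libraries. Olig1 stood at 704 to 855 TPM with CPC and 1016 to 1284 TPM with vehicle, and Olig2 at 333 to 429 TPM with CPC and 351 to 537 TPM with vehicle. Neural progenitor markers were abundant too. The 11 of them summed to 1955 to 2445 TPM with CPC and 2047 to 2248 TPM with vehicle, with Vim at means of 1770 and 1698 TPM. Markers of myelinating cells were low or absent, with Mog and Mal at 0 in all 6 libraries. The 12 microglial markers summed to at most 2.28 TPM with CPC and 3.39 TPM with vehicle, with Cx3cr1, Tyrobp, C1qa, C1qb and Trem2 at 0 in all 6, and the 8 endothelial markers summed to at most 2.03 TPM with CPC and 1.77 TPM with vehicle. Vehicle library 1 stood apart: its mitochondrial transcripts summed to 86422 TPM, against 147539 to 183001 TPM in the other 11 libraries, mt-Nd3 stood at 0, and its mean correlation with the others, across genes, was 0.917 against 0.935 to 0.957. Its part in the results was not tested beyond the values without it that follow. Same-numbered CPC and vehicle libraries deviated together from their group means, with correlations across genes of 0.339, 0.305 and 0.234 for numbers 1, 2 and 3. Between different numbers none was above 0.012. The deviations within a group add up to 0 for every gene, so positive values for the same numbers force lower ones between different numbers. The latter are therefore no separate evidence of pairing.

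At the threshold used throughout, a limma adjusted p under 0.05, CPC changed few genes beyond the spread of the libraries. Of 12009 tested genes, 8 were called when the 4 groups were compared without regard to the replicate number, which is 0.0666%, 4 higher and 4 lower with CPC. Chac1, Trib3 and Mthfd2 of the integrated stress response and the receptor gene Nr4a1 rose, and Sfpq, Dll1, Rbmxl1 and the pseudogene Gm9775 fell. With the replicate number as a block the count was 184, or 1.53%, of which 34 (0.283%) were higher and 150 (1.25%) lower with CPC, and it held all 8. The counts of called list members below are to be read against these shares. Outside the list of 53 targets of the integrated stress response lay 5 of the 8 and 176 of the 184.

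The blocked count fell whichever library was left out, and the part that having fewer libraries played in this was not tested. Without CPC library 1, 2 or 3 it was 5, 3 or 1, and without vehicle library 1, 2 or 3 it was 81, 0 or 80; without the block these counts were 5, 2 and 1 for the CPC libraries and 3, 2 and 5 for the vehicle libraries. In the fit on the CPC and vehicle libraries alone no gene was called with or without the block, with 2140 and 1367 genes at an unadjusted p under 0.05. Of the 184, 163 had CPC and vehicle libraries that did not overlap, against 2473 of all tested genes, or 20.6%, though both measures come from the same libraries. A total of 86 of the 184 were called in at least 1 of the 6 blocked fits that each left out 1 library and only Trib3, Chac1, Mthfd2, Nr4a1 and Slc25a25 in at least 3 of them, Trib3 in 5, Chac1 in 4 and the other 3 genes in 3. All 184 kept their sign in these 6 fits, which share most of their libraries with the full fit. Over every alternative run, the smallest adjusted p of each of the 184 lay between 0.000157 and 0.0164 and the largest between 0.186 and 0.898.

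The median tested gene was lower with CPC by 0.17 on the log2 scale, and by 0.09 without vehicle library 1, and 28.9% of the tested genes had a positive fold change. Quantile normalization, which sets this shift to 0, turned the split of the blocked calls to 79 higher and 36 lower, 115 in all or 0.958%, and left 66 of the 184 called, 31 higher and 35 lower. Fold changes below are log2 ratios of CPC over vehicle on the scale of TPM + 1, which understates the change of low genes, and "relative to the median gene" means after taking out this shift. The 50% of tested genes in the middle lay between -0.21 and 0.20 relative to it.

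**Figure D1:**
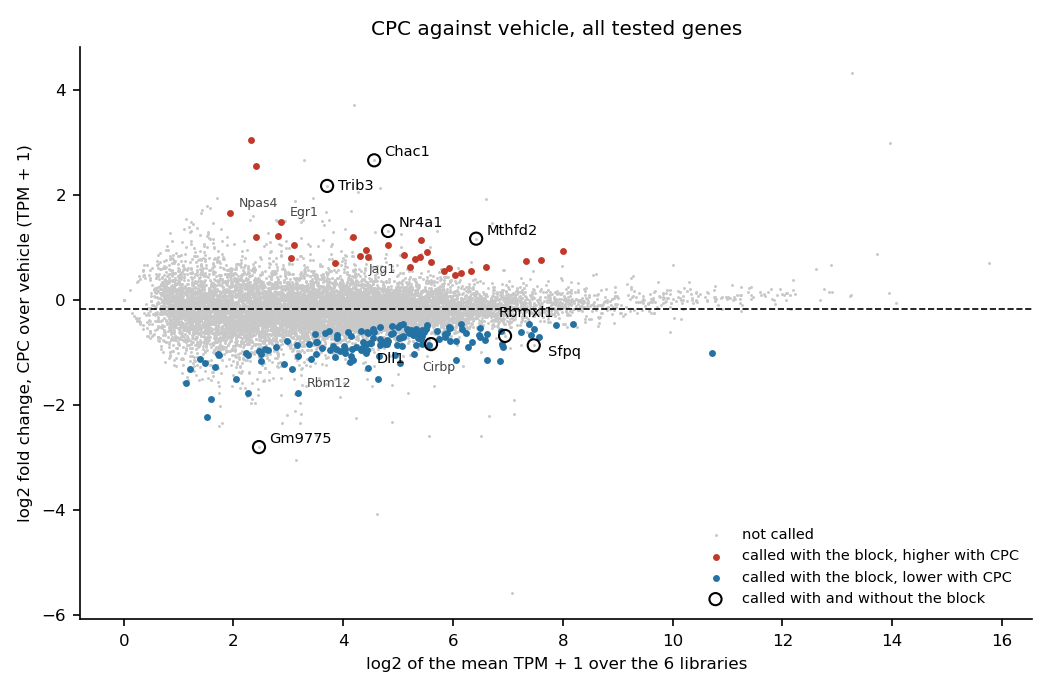
Each point is 1 of the 12009 tested genes, with the log2 of its mean TPM + 1 over the 6 libraries across and its log2 fold change, CPC over vehicle, up; the dashed line is the median gene at -0.17. Of the 34 higher and 150 lower genes called with the replicate number as a block, rings mark the 8 called also without it and red and blue points the others.

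Outside the stress list, 3 immediate early genes rose. Nr4a1, an orphan nuclear receptor of that class (chr15:101254269-101274795, plus strand, GRCm38), had 29.1, 42.5 and 46.5 TPM with CPC, against 12.3, 17.1 and 15.6 TPM with vehicle. Every CPC library stood above every vehicle library, the means were 39.3 ± 9.13 and 15.0 ± 2.45 TPM (SD, n = 3 each), and the log2 fold change was 1.32 with a 95% interval of 0.94 to 1.70. Its adjusted p was 0.0153 with the block and 0.0246 without it, and between 0.00145 and 0.299 over the alternatives. Npas4, a transcription factor gene known from active neurons (chr19:4984355-4990316, minus strand), was far lower but moved further: 3.17, 6.31 and 5.10 TPM with CPC, against 0.581, 0.844 and 1.0 TPM with vehicle. The log2 fold change was 1.66 with a 95% interval of 1.09 to 2.24, called with the block at an adjusted p of 0.0179 and just missed without it at 0.054.

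Egr1, a zinc finger factor induced by ERK, shows what the block does. It had 2.26, 8.76 and 18.8 TPM in CPC libraries 1, 2 and 3, against 0.599, 1.67 and 5.78 TPM in vehicle libraries 1, 2 and 3. The groups overlapped, since vehicle library 3 stood above CPC library 1, while within each number CPC was higher, by 1.03, 1.87 and 1.54 on the log2 scale. Its adjusted p was 0.0346 with the block and 0.467 without it, with a plain 95% interval from -0.38 to 3.34. Btg2, an antiproliferative early gene that p53 also induces, went the other way and was called lower with the block only, with 94.7, 43.0 and 51.8 TPM with CPC and 150, 115 and 132 TPM with vehicle (log2 fold change -1.13, adjusted p = 0.0304 with the block and 0.25 without it).

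Of the 31 listed immediate early genes 25 were tested. With the block Nr4a1, Npas4 and Egr1 rose, Btg2 fell and 21 did not pass, against 0.283% of all tested genes higher and 1.25% lower. By sign 19 of the 25 had a positive fold change, against 28.9% of all tested genes. Their median was 0.50 above the median gene, between 0.34 and 0.74 over the alternatives. The list's other members were uneven. Srf, the serum response factor, had 56.5, 90.9 and 72.9 TPM with CPC, against 41.0, 23.3 and 24.1 TPM with vehicle, without overlap, at an adjusted p of 0.0619 with the block. Fos, an AP-1 subunit, had 4.23, 8.75 and 9.71 TPM with CPC, against 3.09, 4.10 and 2.70 TPM with vehicle, at 0.0584. Both passed when quantile normalization was added to the block (adjusted p = 0.0356 for each), while Btg2 then did not (0.0786). Junb, of the same AP-1 family, also did not overlap, at 2.91, 3.81 and 3.65 TPM with CPC and 1.24, 1.17 and 2.30 TPM with vehicle, with an adjusted p of 0.118 with the block. The sister receptors Nr4a2 and Nr4a3 were not called, and Nr4a2 stood lower in every CPC library, at 2.20 to 3.26 TPM with CPC and 3.66 to 4.83 TPM with vehicle. Srf, Junb, Nr4a2 and Nr4a3 were chosen after their values were seen.

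Of the ERK feedback genes 1 passed, amid much scatter between libraries. Spry2, which encodes a Sprouty inhibitor of receptor tyrosine kinase signalling, had 25.9, 90.1 and 60.9 TPM in CPC libraries 1, 2 and 3, against 16.8, 38.2 and 19.2 TPM in vehicle libraries 1, 2 and 3. CPC was higher within each number while the groups overlapped, and the log2 fold change of 1.14 was called with the block only (adjusted p = 0.0398, against 0.334 without it). It was the 1 called gene of the 17 tested, against 0.283% of all tested genes higher and 1.25% lower. By sign 13 of the 17 had a positive fold change, against 28.9% of all tested genes. The list median was 0.44 above the median gene and between 0.27 and 0.81 over the alternatives. Dusp6, the ERK phosphatase, had 9.55, 56.1 and 70.6 TPM with CPC and 7.01, 27.0 and 22.0 TPM with vehicle, and Spry4 had 6.32, 26.5 and 27.2 TPM with CPC and 4.03, 13.8 and 9.62 TPM with vehicle. Both were higher with CPC within each number and neither passed (adjusted p = 0.0745 and 0.0728 with the block); they were chosen after their values were seen. Hbegf, a growth factor gene of the EGF family that is also outside the naming rule, rose with the block to 31.9, 42.7 and 75.5 TPM, against 22.0, 24.8 and 35.3 TPM with vehicle, with overlap.

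The promoter sequences of 3 genes that rose are printed because they carry letters of the cyclic AMP response element, a site bound by CREB and ATF proteins. The windows run from 250 bases before to 50 bases after a start site, are taken from RefSeq on GRCm38.p6, are written in the direction of the gene, and have in capitals each TGACG, the shared core of the element, read on either strand (CGTCA on the other one). The Nr4a1 window is chr15:101266596-101266895 on the plus strand and holds 4 such cores. The Npas4 window is chr19:4989922-4990221 on the minus strand and holds 2. Slc25a25, a calcium-regulated carrier of the inner mitochondrial membrane, has 3 windows in the table, and the one shown, chr2:32424017-32424316 on the minus strand, holds the whole element TGACGTCA, 150 bases before the start.
Nr4a1: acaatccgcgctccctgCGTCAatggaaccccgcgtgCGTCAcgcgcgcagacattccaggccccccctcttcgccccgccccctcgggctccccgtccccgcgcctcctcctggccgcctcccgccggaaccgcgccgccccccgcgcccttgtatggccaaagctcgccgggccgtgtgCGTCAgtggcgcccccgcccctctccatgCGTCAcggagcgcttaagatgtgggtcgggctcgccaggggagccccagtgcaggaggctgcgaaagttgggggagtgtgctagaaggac
Npas4: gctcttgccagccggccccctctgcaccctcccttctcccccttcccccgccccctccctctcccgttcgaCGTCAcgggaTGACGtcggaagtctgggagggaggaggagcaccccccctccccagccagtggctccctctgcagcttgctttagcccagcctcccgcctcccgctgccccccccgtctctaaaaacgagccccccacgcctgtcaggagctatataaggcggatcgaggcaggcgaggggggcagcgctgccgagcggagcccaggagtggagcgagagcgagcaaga
Slc25a25: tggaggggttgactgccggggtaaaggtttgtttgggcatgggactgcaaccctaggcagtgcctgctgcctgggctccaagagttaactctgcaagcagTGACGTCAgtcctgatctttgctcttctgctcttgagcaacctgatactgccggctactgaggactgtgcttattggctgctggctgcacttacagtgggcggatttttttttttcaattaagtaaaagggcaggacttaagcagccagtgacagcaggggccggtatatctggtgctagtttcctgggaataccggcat
The core TGACG occurred in at least 1 window of 12 of the 20 genes that rose with the block outside the stress list and had a window, which is 60%, against 36.6% of the 9062 tested genes with a window, 46.5% of the 114 genes that fell, and 23% of all 27025 genes of the table. The whole element occurred in 2 of the 20 (10%), Slc25a25 and Oxsr1, and in 5 of the 114 genes that fell (4.39%), Btg2 among them. Over the tested genes with a window its share was 3.7%. Other elements were also searched: TGANTCA (AP-1), TGATGNAAN (C/EBP-ATF) and TTTCGCGC (E2F). Each occurred in 1 of the 20, against 5.57%, 2.52% and 0.75% of the tested genes. The 20 genes had a mean of 1.4 windows, against 1.29 for the tested genes, and more windows raise such shares. These are descriptions of letters in a window, not of binding, and the core overlaps the whole element.

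Slc25a25 itself had 21.6, 46.0 and 45 TPM with CPC, against 12.6, 19.7 and 18.8 TPM with vehicle, without overlap. The log2 fold change was 1.05, with an adjusted p of 0.0153 with the block and 0.24 without it. Naif1 lies across it on the other strand, and since the library kit is not described as marking strand, reads of these genes cannot be told apart.

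**Figure D2:**
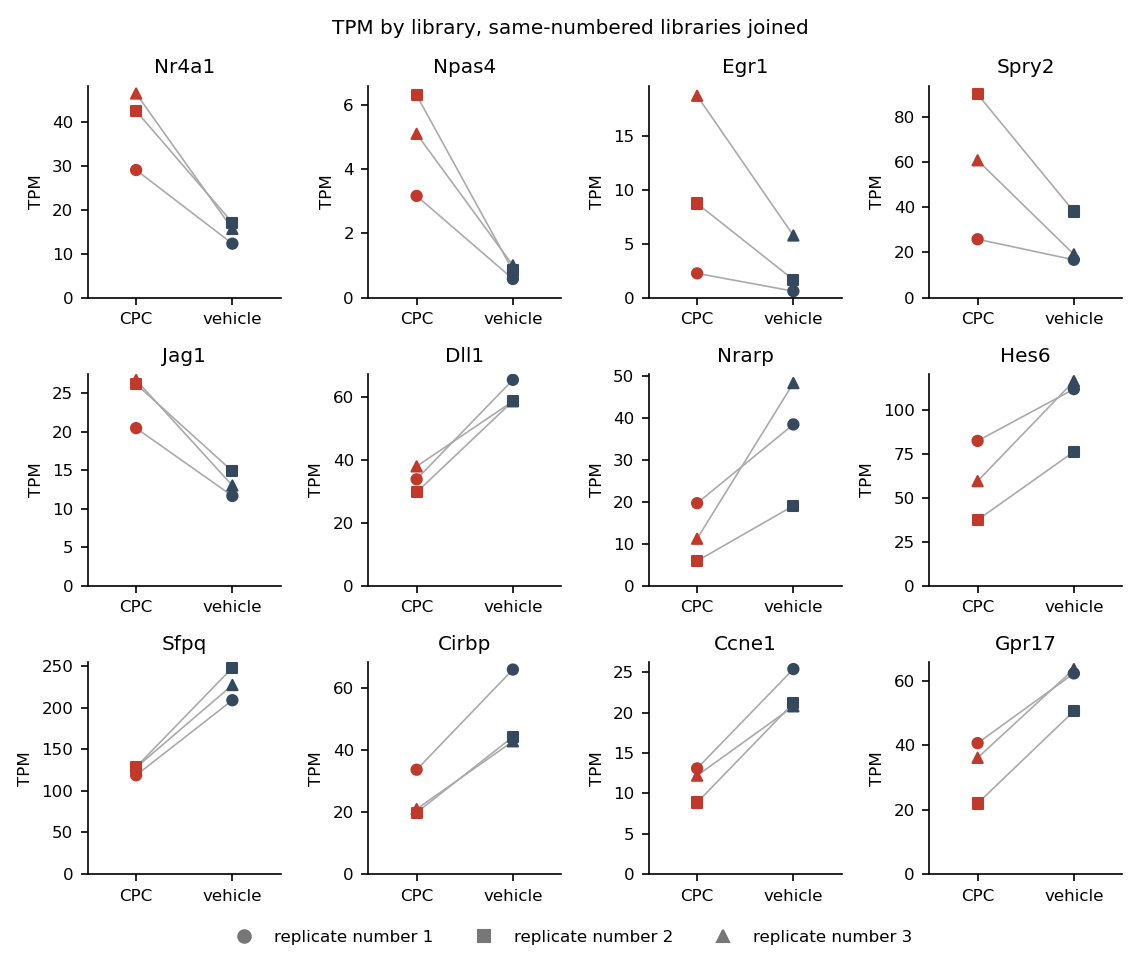
TPM of 12 genes in the 3 CPC libraries (left of each panel, red) and the 3 vehicle libraries (right, dark), with same-numbered libraries joined by a line. Nr4a1, Npas4, Egr1, Spry2 and Jag1 were higher and the other 7 genes lower with CPC within each number, and in Egr1, Spry2, Nrarp and Hes6 the groups overlapped.

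The 2 Notch ligand genes that passed the test moved in opposite directions. The ligand gene Dll1 (chr17:15367354-15376872, minus strand) fell to 33.9, 29.8 and 38.0 TPM with CPC, against 65.6, 58.8 and 58.7 TPM with vehicle. The groups lay far apart, the log2 fold change was -0.83 with a 95% interval of -1.09 to -0.57, and the adjusted p was 0.022 with the block and 0.0331 without it, between 0.00208 and 0.299 over the alternatives. The other of these, Jag1, rose with the block to 20.4, 26.2 and 26.7 TPM, against 11.7, 14.9 and 13.0 TPM with vehicle, by 0.84 on the log2 scale (adjusted p = 0.0422, against 0.124 without the block). These 2 ligand genes differed in direction in all 3 same-numbered pairs. That adds nothing to their calls, since each of the 184 blocked calls had 1 sign in all 3 pairs. Dll3, another tested ligand gene, was not called (adjusted p = 0.653 with the block). It had means of 57.9 TPM with CPC and 66.7 TPM with vehicle, and was chosen after its values were seen.

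Of genes downstream of Notch, or that modify its receptors, Nrarp, Hes6 and Lfng were called lower with the block, and none of these 3 calls held when quantile normalization was added (adjusted p = 0.0868, 0.16 and 0.12). Nrarp, a target that feeds back on the pathway, had 19.7, 5.92 and 11.2 TPM in CPC libraries 1, 2 and 3, against 38.4, 19.1 and 48.3 TPM in vehicle libraries 1, 2 and 3 (log2 fold change -1.49, adjusted p = 0.0415 with the block and 0.233 without it). Hes6, a bHLH gene of the Hes family that promotes differentiation, had 82.2, 37.4 and 59.4 TPM with CPC and 112, 76.1 and 116 TPM with vehicle. Lfng, the lunatic fringe glycosyltransferase that modifies Notch receptors, had 15.0, 21.7 and 18.3 TPM with CPC and 31.2, 34.6 and 30.3 TPM with vehicle, without overlap. Against 0.283% of all tested genes higher and 1.25% lower, 1 of the 28 tested members of the pathway rose, 4 fell and 23 did not pass. The canonical effectors were among the last group: Hes5 had 115, 60.9 and 71.9 TPM with CPC and 125, 135 and 184 TPM with vehicle, without overlap (adjusted p = 0.175 with the block), and Hes1 had 24, 23.6 and 39.9 TPM with CPC and 20.6, 19.2 and 38.2 TPM with vehicle. The median of the list was 0.11 below the median gene.

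Of the 23 tested OPC markers 2 fell and none rose with the block, against 1.25% and 0.283% of all tested genes. By sign 7 of the 23 had a positive fold change, near the 28.9% of all tested genes. Gpr17, a receptor of the committed stage between progenitor and oligodendrocyte, had 40.7, 22.0 and 36.2 TPM with CPC, against 62.4, 50.7 and 63.8 TPM with vehicle. The groups did not overlap, and the log2 fold change of -0.86 was called with the block (adjusted p = 0.045, against 0.272 without it). Sox8, a SoxE factor that acts with Sox10, had 191, 88.1 and 121 TPM with CPC, against 261, 137 and 229 TPM with vehicle, lower within each number (adjusted p = 0.0422 with the block, 0.393 without it). Neither call held when quantile normalization was added to the block (adjusted p = 0.126 for Gpr17 and 0.111 for Sox8). The other 21 of the 23 tested markers did not pass, and the list median was 0.07 below the median gene. Olig1, the most abundant of them, stood lower in each CPC library, with a log2 fold change of -0.61 and an adjusted p of 0.0954 with the block. Pdgfra had 11.6, 20.2 and 28.8 TPM with CPC and 29.3, 35.6 and 29.3 TPM with vehicle, and Sox10 and Cspg4 overlapped between the groups.

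Over all 25 listed OPC markers the sum was 2278 to 2373 TPM with CPC and 2841 to 3140 TPM with vehicle, without overlap. Olig1 made up most of the difference, and without it the sum was 1491 to 1582 TPM with CPC and 1744 to 1858 TPM with vehicle. The sum of the 16 neuron markers, of which Map2 made up most, moved the same way, at 363 to 434 TPM with CPC and 467 to 513 TPM with vehicle, with Slc17a6 at 0 in all 6 libraries. The 12 astrocyte markers summed to 377 to 511 TPM with CPC and 452 to 510 TPM with vehicle, and the 13 mesenchymal ones to 69.3 to 124 TPM with CPC and 61.0 to 94.0 TPM with vehicle. The part of these other markers in the result was not tested, and in bulk RNA fewer cells of a type and less RNA per cell cannot be told apart. Of the myelin and differentiation genes 15 of 28 listed passed the filter on low values, and Cnp, an enzyme of early oligodendrocyte membranes, was the 1 called: it fell with the block to 40.9, 33.3 and 33.3 TPM, against 59.8, 48.1 and 51.0 TPM with vehicle, a call that ended with quantile normalization added (adjusted p = 0.0879). Dnajc7 overlaps Cnp, and Lims2 overlaps Gpr17, on the opposite strand.

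Among RNA-binding proteins lay the lower gene with the smallest adjusted p. Sfpq, a splicing factor that builds paraspeckles (chr4:127021324-127037013, plus strand), had 119, 129 and 128 TPM with CPC, against 209, 248 and 227 TPM with vehicle. Each group was tight, at 125 ± 5.55 and 228 ± 19.5 TPM (SD, n = 3 each), and the log2 fold change was -0.86 with a 95% interval of -1.07 to -0.65. Its adjusted p was 0.00785 with the block and 0.0115 without it, between 0.000244 and 0.25 over the alternatives. Its paraspeckle partners Nono and Pspc1 were not called. Nono stood at 282, 337 and 292 TPM with CPC and 345, 354 and 347 TPM with vehicle, without overlap, and Pspc1 at 9.05, 10.7 and 9.38 TPM with CPC and 35.1, 17.7 and 10.3 TPM with vehicle. Ddx5, an RNA helicase, fell with the block to 108, 129 and 121 TPM, against 193, 182 and 169 TPM with vehicle, and its close relative Ddx17 stood higher in every CPC library, at 147 to 170 TPM against 133 to 138 TPM with vehicle, without passing. Of the 26 tested genes of this list 2 fell and none rose, against 1.25% and 0.283% of all tested genes. By sign 21 had a negative and 5 a positive fold change, against 28.9% positive over all tested genes. The median of the list was 0.13 below the median gene. Nono, Pspc1 and Ddx17 were chosen after their values were seen.

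Among the 31 tested genes named for RNA-binding motifs 5 fell and none rose with the block, against 1.25% and 0.283% of all tested genes. The median of the list was within 0.01 of the median gene. Rbmxl1 had 86.1, 100 and 95.9 TPM with CPC, against 154, 158 and 140 TPM with vehicle, and was called also without the block (adjusted p = 0.0187 with it and 0.0421 without it). Its parent gene Rbmx, of which it is a retrocopy, had 53.3, 48.0 and 40.6 TPM with CPC and 100, 85.1 and 63.6 TPM with vehicle. Reads of the pair may be split by the authors' quantification, so both falls are uncertain as separate results. Cirbp, the cold-inducible RNA-binding protein, had 33.6, 19.8 and 20.9 TPM with CPC, against 65.9, 44.2 and 42.8 TPM with vehicle, with log2 fold changes between -1.12 and -0.95 in the same-numbered pairs.

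Rbm12 fell furthest of this list, to 3.32, 3.50 and 2.57 TPM with CPC, against 14, 13.2 and 11.9 TPM with vehicle, a log2 fold change of -1.77. Cpne1, a copine that binds membrane lipids in response to calcium, overlaps it on the same strand and rose with the block to 45.1, 59.6 and 54.6 TPM, against 24.9, 29.9 and 33.5 TPM with vehicle. How the authors' quantification divided reads between these overlapping genes was not tested. Among the 38 tested SR proteins and hnRNPs, which bind pre-mRNA and steer splicing, Srsf3, Srsf5, Srsf6 and Hnrnpu fell with the block and none rose. Over all tested genes 1.25% fell and 0.283% rose, and the median of the list was 0.05 above the median gene. With quantile normalization added none of these 4 passed, at adjusted p-values of 0.0553 to 0.0852. Srsf6 was the tightest, at 68.6, 64.3 and 68.8 TPM with CPC and 110, 111 and 111 TPM with vehicle. Srsf3 had 181, 120 and 136 TPM with CPC and 241, 227 and 231 TPM with vehicle.

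Most cell cycle genes did not pass the test, but the shares called lower in both lists below were above the 1.25% of all tested genes. Over all tested genes 0.283% rose. Ccne1, the cyclin that with CDK2 opens S phase, had 13.1, 8.86 and 12.2 TPM with CPC, against 25.4, 21.2 and 20.8 TPM with vehicle, without overlap (log2 fold change -0.93, adjusted p = 0.0253 with the block and 0.124 without it). Of the 45 tested DNA replication genes, Ccne1, Gins1 (a subunit of the replicative helicase), Rfc3 (of the clamp loader) and Fen1 (the flap endonuclease) fell with the block, E2f8 rose, and 40 did not pass. E2f8, a repressor of the E2F family, had 7.76, 13.2 and 7.87 TPM with CPC, against 3.61, 5.90 and 5.40 TPM with vehicle. Of the 40 tested genes of G2 and mitosis, Kif20a, a kinesin of cytokinesis, and Bub1b, of the spindle checkpoint, fell with the block and 38 did not pass. With quantile normalization added, Ccne1, E2f8 and Kif20a still passed and Gins1, Rfc3, Fen1 and Bub1b did not (adjusted p = 0.0767 to 0.209).

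By sign, 38 of the 40 mitosis genes and 38 of the 45 replication genes had a negative fold change. Over all tested genes 28.9% had a positive one. In 24 of the 40 mitosis genes and 21 of the 45 replication genes every CPC library lay below every vehicle library, against 2163 of all tested genes, or 18%; in the other direction the counts were 0 of 40 and 1 of 45, against 2.58%. Vehicle library 1 was the highest vehicle library in 31 of the 40 and 29 of the 45, against 59.1% of all tested genes. Without it, in a comparison added after seeing the data, the counts below were 25 of 40 and 22 of 45, against 22.5%. Leaving out a vehicle library can only keep or raise such counts, so they cannot show whether the lower values rest on that library. Their medians were 0.30 and 0.20 below the median gene, between -0.41 and -0.26 for mitosis and between -0.30 and -0.18 for replication over the alternatives. Mki67, the proliferation marker, had 51.7, 47.0 and 46.6 TPM with CPC and 87.7, 68.3 and 60.9 TPM with vehicle, with an adjusted p of 0.0936 with the block. Ccnd1, the G1 cyclin that growth factors induce, overlapped between the groups, at 160, 208 and 277 TPM with CPC and 201, 272 and 268 TPM with vehicle. Cdkn1a, the p53-induced inhibitor of cyclin-dependent kinases, also overlapped, at 183 to 298 TPM with CPC and 156 to 308 TPM with vehicle, and of the 19 tested p53 targets only Trp53inp1 was called, lower, and not with quantile normalization added (adjusted p = 0.0557).

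**Figure D3:**
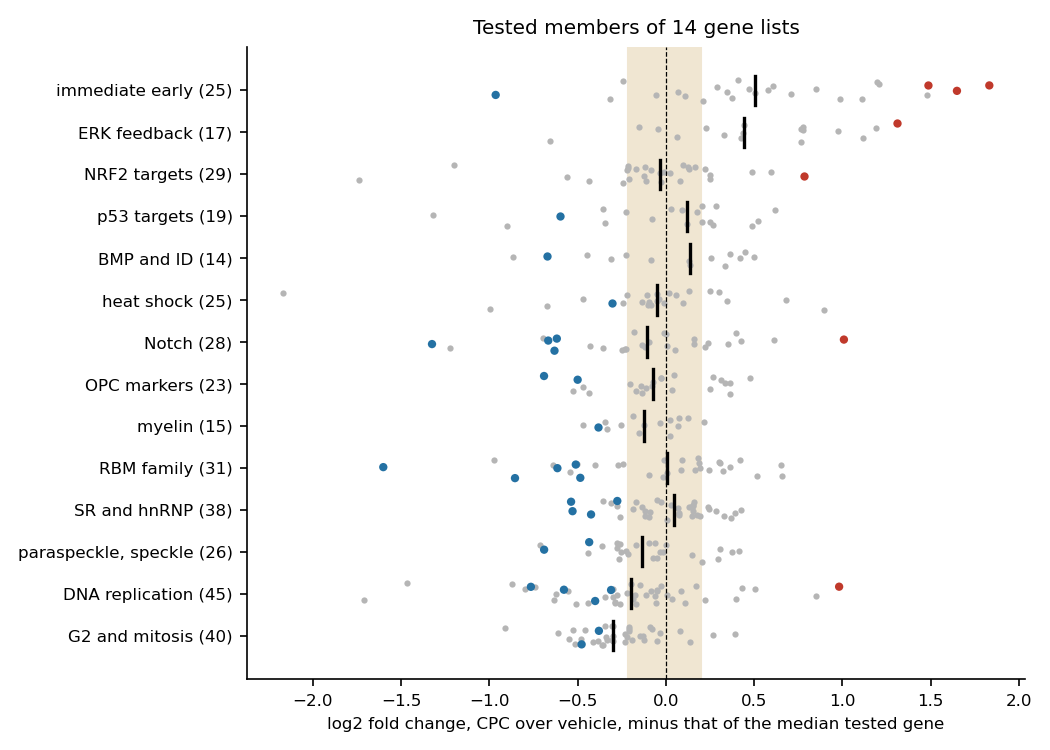
Log2 fold change, CPC over vehicle, minus that of the median tested gene, for the tested members of 14 gene lists (number of members in brackets); black bars are list medians, the shaded band holds the middle 50% of all tested genes, and red and blue points are members called higher or lower with the replicate number as a block. Immediate early and ERK feedback genes lie mostly to the right, mitosis genes mostly to the left, and the other medians lie within the band.

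Further genes rose with the block, all but Arl4c outside the lists. Irf2bp2, a transcriptional corepressor, had 14.6, 31.9 and 26.7 TPM with CPC, against 6.09, 12.2 and 11.1 TPM with vehicle, and rose by 1.14, 1.32 and 1.19 on the log2 scale in the 3 same-numbered pairs. Oxsr1, a kinase that controls cation-chloride cotransporters, had 5.71, 6.93 and 6.57 TPM with CPC, against 1.69, 2.28 and 2.68 TPM with vehicle. Clcn5, an endosomal chloride-proton exchanger, had 8.53, 14.4 and 4.19 TPM with CPC, against 3.26, 3.90 and 1.89 TPM with vehicle; its CPC libraries spread widely but did not overlap the vehicle libraries. St3gal6 (a sialyltransferase), Arl14ep, Fam13c and Arl4c (a small GTPase gene from the list of LXR targets) rose by 1.06, 0.95, 0.92 and 0.72 on the log2 scale, without overlap. Slc22a14 overlaps Oxsr1 on the same strand, and Dcbld2 and Phyhipl overlap St3gal6 and Fam13c on the opposite one. The members of this group had adjusted p-values of 0.0253 to 0.047 with the block and 0.12 to 0.245 without it.

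The lower genes with the largest changes had varied roles. Mat2a, which makes S-adenosylmethionine, had 91.5, 47.0 and 78.4 TPM with CPC, against 191, 130 and 153 TPM with vehicle (log2 fold change -1.15, adjusted p = 0.0187 with the block and 0.193 without it). Hexim1, an inhibitor of the elongation kinase P-TEFb that was chosen after its values were seen, had 23.5, 15.6 and 18.5 TPM with CPC, against 43.3, 35.2 and 42.2 TPM with vehicle. Txnip, an inhibitor of thioredoxin and of glucose uptake, had 2.11, 0.871 and 0.299 TPM with CPC, against 9.51, 2.73 and 3.30 TPM with vehicle. Armc10, Wdr91, Zfp967, Vmac, Ppp1r10 (a regulatory subunit of protein phosphatase 1), Tm2d3, Mcf2l and Snn complete the lowest genes outside the stress list, with log2 fold changes between -1.77 and -1.14. With quantile normalization added, Mat2a, Hexim1 and Armc10 still passed and the other 8 genes of this paragraph did not (adjusted p = 0.0593 to 0.109).

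Pseudogenes stood at both ends. Gm9775, called with and without the block, was at 0, 1.52 and 0 TPM with CPC, against 10.1, 6.84 and 8.71 TPM with vehicle, and Gm5417, chosen after its values were seen, was at 4.72, 13.1 and 6.11 TPM with CPC and listed at 0 in the 3 vehicle libraries. Gm5417 lost its call with quantile normalization added (adjusted p = 0.0663). Gm9775 and Gm5417 are annotated as processed pseudogenes, copies of other genes whose reads cannot be assigned with certainty. Of 329 tested genes of the Zfp series 5 fell and none rose with the block, a share near the 1.25% of all tested genes, with a median 0.07 below the median gene. Of 64 histone genes, found by the name Hist or the name of a variant histone, 3 fell and none rose. Over all tested genes 1.25% fell and 0.283% rose. The median of these 64 was 0.26 below the median gene. How fully the poly(A) libraries captured histone transcripts was not tested. Many of these histone genes are near-identical copies.

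Lipid, organelle and membrane genes showed few calls. None of the 24 tested genes of cholesterol synthesis and uptake and none of the 19 of fatty acid synthesis was called: Hmgcs1 had 702, 749 and 674 TPM with CPC and 1033, 789 and 730 TPM with vehicle. The same held for 49 genes of lysosomes and autophagy, 30 of the unfolded protein response of the endoplasmic reticulum, 21 of membrane repair, 28 ion channels and transporters, 31 of actin, tubulin and adhesion, 23 of cell death, 26 of glycolysis and hypoxia, 32 of mitochondrial upkeep, 33 chromatin regulators, 41 of ribosome biogenesis, 9 snoRNA hosts and NMD factors, 9 WNT and hedgehog targets, 11 neural progenitor markers and 12 genes of inflammation. Hspa5, the main chaperone of the endoplasmic reticulum, overlapped between the groups at 280, 246 and 289 TPM with CPC and 413, 234 and 289 TPM with vehicle. Other lists held single calls. Hmox1, heme oxygenase, rose with the block among 29 NRF2 and glutathione genes (59.3, 77.5 and 79.5 TPM with CPC, against 38.5, 46.3 and 55.7 TPM with vehicle), and Dnaja1, an HSP70 co-chaperone, fell among 25 heat shock genes. Sptlc1, a subunit of the first enzyme of sphingolipid synthesis, fell among 31 genes of membrane lipids, and Id3, an inhibitor of bHLH factors, among 14 BMP and ID genes. Of 10 tested LXR targets Arl4c rose and Smpdl3a, a phosphodiesterase, fell to 9.30, 12.5 and 9.26 TPM with CPC, against 20.5, 24.4 and 15.2 TPM with vehicle. The calls of Dnaja1, Id3 and Smpdl3a ended when quantile normalization was added to the block (adjusted p = 0.0667, 0.155 and 0.121).

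No gene of ribosomes or of the respiratory chain was called. Of 79 ribosomal protein genes 60 had a positive fold change, against 28.9% of all tested genes. The list median was 0.24 above the median gene, between 0.03 and 0.32 over the alternatives. The 75 nuclear genes of the respiratory chain had a median 0.15 above it, and the 13 mitochondrially encoded messages 0.31 above it, a value that ran from -0.13 to 0.63 over the alternatives and was -0.08 without vehicle library 1. With the half-width of a 95% interval at 0.457 log2 for the median gene with the block and 0.55 without it, changes of this size in single genes were not detectable.

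AEBDAC has an alkyl chain, an ethylbenzyl group and methyl groups on its nitrogen where CPC has an alkyl chain on a pyridinium ring, and MTOAC has octyl chains and no ring. Between these compounds and CPC no gene was called: 0 of 12009 genes, or 0%, differed between CPC and AEBDAC, with 211 at an unadjusted p under 0.05, and 0, or 0%, between CPC and MTOAC, with 449. With the block these unadjusted counts were 415 and 825 and the called ones again 0. The doses were matched only as IC75 values, so the levels are set side by side and the differences come with their intervals.

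Nr4a1 stood at 39.3 ± 9.13 TPM with CPC, 65.4 ± 2.10 with AEBDAC, 58.5 ± 2.29 with MTOAC and 15.0 ± 2.45 with vehicle (SD, n = 3 each). CPC minus AEBDAC was -0.75 log2 with a 95% interval of -1.12 to -0.37, and CPC minus MTOAC -0.59 with -0.96 to -0.21, neither called after adjustment over all genes. Npas4 had 4.86 ± 1.58 TPM with CPC, 8.68 ± 1.98 with AEBDAC, 8.69 ± 2.17 with MTOAC and 0.81 ± 0.214 with vehicle. In both genes CPC was the lowest of the 3 compounds and above vehicle. Gpr17 had 33.0 ± 9.78 TPM with CPC, 23.5 ± 9.76 with AEBDAC, 13.6 ± 2.79 with MTOAC and 59.0 ± 7.19 with vehicle, and CPC minus MTOAC was 1.19 log2 with an interval of 0.52 to 1.86. Sfpq had 125 ± 5.55 TPM with CPC and 130 ± 6.48 TPM with AEBDAC, a difference of -0.05 log2 with an interval of -0.26 to 0.16.

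Hspa1a, the inducible HSP70, was lower with CPC than with MTOAC in every library, by a difference that was not called over all genes. It had 3.98, 10.2 and 3.14 TPM with CPC, a mean of 14.5 ± 6.52 with AEBDAC and 33.3 ± 1.27 with MTOAC (SD, n = 3 each), against 3.52, 1.86 and 2.92 TPM with vehicle. CPC library 2 was the highest of its group. CPC minus MTOAC was -2.48 log2 with an interval of -3.31 to -1.65, and without CPC library 2 Hspa1a was the 1 gene called in that comparison, at -2.92 log2 and an adjusted p of 0.0423. Gm20481 overlaps it on the opposite strand, and its neighbour Hspa1b is a near-identical copy with which reads may be shared.

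**Figure D4:**
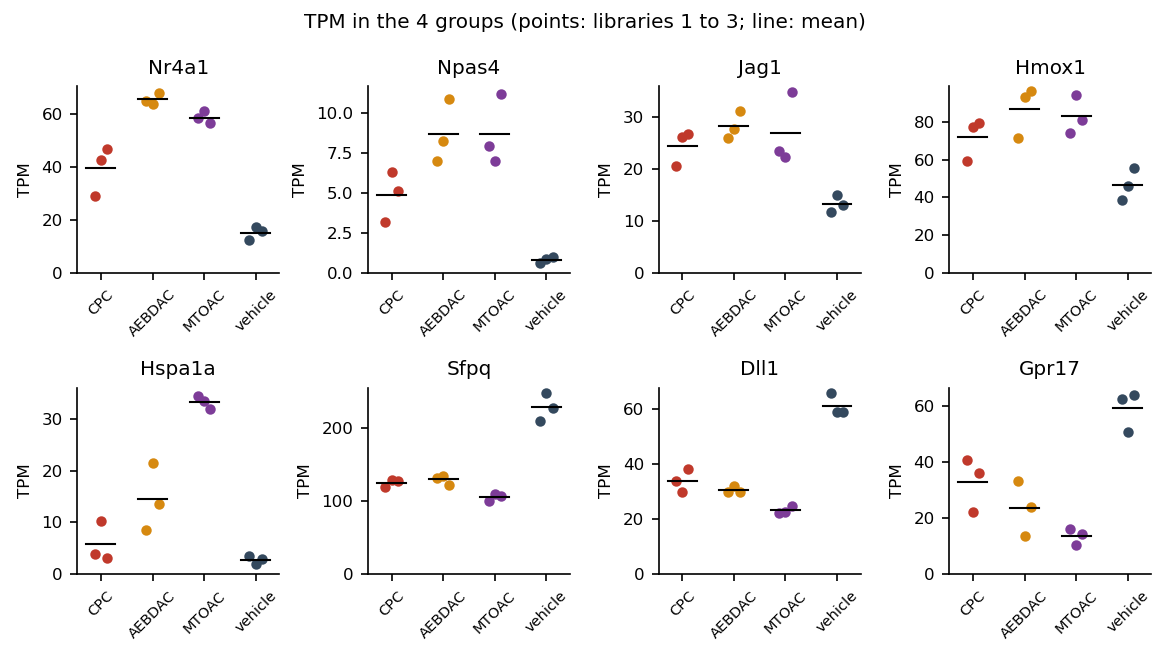
TPM of 8 genes in CPC, AEBDAC, MTOAC and vehicle libraries; points are the 3 libraries of a group and lines their means. CPC lies below both other compounds for Nr4a1, Npas4 and Hspa1a and above both for Dll1 and Gpr17, and between the vehicle and the other compounds for each of these 5 genes.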

How the data were processed

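Poly(A) RNA of 12 libraries, 3 per group, was measured. The authors deposited TPM per gene symbol, made with Salmon against mm10 per the submitters' processing notes, which give no versions here, and TPM keep no depth. The groups were taken from the labels. Values were used as log2(TPM + 1), keeping a gene that reached 1 TPM in 3 or more of the 12 libraries. limma 3.58.1 in R 4.3.3 fitted the 4 group means over all 12 libraries (empirical Bayes with trend and robust), with Benjamini-Hochberg adjusted p-values over all tested genes and a threshold of 0.05, first plain and then blocked on the replicate number. Every adjusted p in the text is from limma, from these fits unless an alternative is named. The numbers pair the libraries only by the data: every same-numbered CPC and vehicle pair correlated above 0.1. The fit was tested on simulated data.

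Genes were named where called without the block, where among the 12 highest or lowest called with the block (outside the stress list, mean at least 5 TPM, no overlap, a gene name), where among up to 4 called members of a list (otherwise its 2 members of smallest p), or from 31 fixed genes. Some genes that the rule names are not reported here. Others are said to be chosen after their values were seen. Members, lists and tests were chosen with earlier results of these data known. Gene coordinates and overlaps come from GENCODE M21 (GRCm38). Alternatives changed the scaling, pseudocount, filter, libraries, weights and moderation.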

Additional observations from a re-analysis of the deposited data

How the results depend on the processing

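Without the block, the 8 calls became 184 with the replicate block, 115 with the block and quantile normalization, 16 with quantile normalization, 13 with a pseudocount of 5, 0 on the CPC and vehicle libraries alone, 130 with array weights, 1 with neither trend nor robust moderation, and 1 to 5 without 1 library. The paired count of 184 became 8 with no replicate block, 115 with quantile normalization, 30 with all genes above 0 TPM, 0 on CPC and vehicle libraries alone, 2043 with array weights, 1 to 5 without 1 CPC library (3 without CPC library 2), and 0 to 81 without 1 vehicle library (80 without vehicle library 3). CPC against MTOAC gave 0 to 1 without 1 library, and CPC against AEBDAC gave 0 throughout. The cause of these shifts was not tested. Of values under the alternatives, over the called genes and the fixed ones apart from those not reported here, set against the fit without the block, in which 8 genes pass and most of these do not, 3023 kept direction and side of the threshold (mostly uncalled values), 321 newly passed, 57 no longer passed and 16 changed sign, in 8 genes that were not called with or without the block. Without 1 library in turn, the log2 fold change ran from -0.13 to 0.36 for Cdkn1a, -0.077 to 0.43 for Cspg4, -0.17 to 0.49 for Ddit3, -0.055 to 0.49 for Hes1, -0.35 to 0.061 for Hspa5, -0.50 to 0.38 for Mbp, -0.79 to 0.26 for Sox10 and -2.70 to 0.26 for Sqstm1. With array weights Hspa5 was at 0.042 and Mbp at 0.16, and Mbp was at 0.13 with quantile normalization, with or without the block. Rescaling over nuclear genes gives no value for mitochondrial messages. TPM carry no depth, so no counting error could be given.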
